A study of Homo sapiens with 6 samples.

Results

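The genes described here are the DNA repair genes that the deposited comparison of mitoxantrone with DMSO lists and that are annotated to neither DNA replication nor the mitotic cell cycle. They were taken as the rows whose annotation holds the whole term DNA repair without the whole terms DNA replication or mitotic cell cycle. The symbols PCNA, POLH, DDB2, FOXM1, RRM2B and PTTG1 were left out by name. The deposited list has 4546 genes, and 92 of them carried the term DNA repair; 36 of these also carried a term that excluded them, and 3 more (DDB2, FOXM1 and RRM2B) were excluded by name alone. The remaining 53 genes are the members.

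All samples were of A549, a long-established line of human lung adenocarcinoma cells. For 48 hours, 3 libraries' cells had received DMSO diluted 1 in 1000, the solvent control, and 3 libraries' cells 50 nM mitoxantrone, an anthracenedione that traps DNA topoisomerase II on cut DNA. The line is a single cancer cell line, no genotype or untreated group is given, and nothing in the labels says that the 3 libraries of a group came from separate cultures. The p-values therefore measure only the spread between these libraries, which may be technical. The table holds only genes that the authors had called different on these same libraries, with an absolute log2 fold change of at least 1.00 and an adjusted p of at most 0.0497. Membership itself therefore used this comparison. A repair gene that is absent is called not listed, which says nothing of its level.

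Cells repair DNA by pathways that are matched to the lesion. Breaks are rejoined by end joining or by homologous recombination, which copies the sister chromatid and therefore serves cells in S and G2 phase. Crosslinks are handled by the Fanconi anemia proteins, damaged bases by base excision, bulky lesions by nucleotide excision and copying errors by mismatch repair. Many recombination and Fanconi genes are transcribed mainly in cycling cells through E2F factors, while p53 activates a smaller set of repair and arrest genes after damage.

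Because most members moved in the same direction, the sequence next to their transcription starts was examined first. A window from 250 bases before to 50 bases after the start was taken from RefSeq (GRCh38.p14) for 46 members. ACTL6A, FANCI, GADD45A, INIP, RDM1 and TCEA1 were among those with no entry. The search covered both strands for the E2F site as TTTCCCGC, TTTCGCGC, TTTGCCGC or TTTGGCGC, the CHR element of late cell cycle genes as TTTGAA, and the CCAAT box as CCAAT. No motif contains another, so matches could overlap only at their ends. An E2F match was present in 9 members. For each of them the match nearest the start is shown here with 11 bases on each side, on the strand of the gene and with the match in capitals, since of the motifs searched E2F had the share that differed most from that of all promoters. The members are in the order of their fold change, from the strongest fall.
EXO1: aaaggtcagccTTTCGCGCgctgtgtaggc
XRCC2: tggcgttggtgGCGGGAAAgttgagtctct
FANCD2: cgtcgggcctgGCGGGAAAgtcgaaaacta
FANCA: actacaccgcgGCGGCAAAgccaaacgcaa
UHRF1: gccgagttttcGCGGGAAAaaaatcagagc
GEN1: cagttgcggggTTTCGCGCcgccggagtct
FANCC: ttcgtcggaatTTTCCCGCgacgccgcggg
TOPBP1: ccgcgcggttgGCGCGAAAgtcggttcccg
MSH6: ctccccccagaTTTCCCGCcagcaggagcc

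These stretches lie at chr1:241848197-241848226 (plus strand) for EXO1, chr7:152676102-152676131 (minus) for XRCC2 and chr3:10026424-10026453 (plus) for FANCD2. Those of FANCA, UHRF1 and GEN1 lie at chr16:89816801-89816830 (minus), chr19:4909476-4909505 (plus) and chr2:17753859-17753888 (plus). Those of FANCC, TOPBP1 and MSH6 lie at chr9:95317737-95317766 (minus), chr3:133661930-133661959 (minus) and chr2:47783137-47783166 (plus). In EXO1, XRCC2, GEN1 and MSH6 the match begins after the annotated start, in FANCD2 and TOPBP1 it spans the start, and in the others it lies before it.

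All 9 members with an E2F match were lower with mitoxantrone. They were 22.0% of the 41 lower members with a window, while an E2F match occurred in 11.1% of 1320 listed lower genes, in 3.47% of 1701 listed higher genes and in 3.99% of all 27305 genes with a window. None of the 5 higher members had one. The share among the other listed genes with the term DNA repair was not counted, so the E2F share is not shown to be particular to the members. Counted per window, the E2F share was 17.2% of 58 for the lower members, 8.06% of 1911 for listed lower genes and 3.31% of all 35116. Among members lower by more than 2 on the log2 scale the share was 27.8% (5 of 18 genes), and among those that fell less 17.4% (4 of 23). For CHR the same split gave 16.7% and 21.7%. These counts are small, and a link to the size of the fall was not tested. The CHR letters occurred in 19.5% of the lower members, 21.7% of the listed lower genes and 18.2% of all genes. The CCAAT box occurred in 51.2%, 48.3% and 39.7%. The median GC content of the windows was 65.5% for the lower members and 58.7% for all windows, which bears on GC-rich motifs and was not corrected. Half-sites of p53 were searched as well, as RRRCWWGYYY, where R is A or G, W is A or T and Y is C or T. A pair of them, at most 13 bases apart, was in none of the 63 windows of the 46 members and in 0.0366% of all genes. With a pattern so rare in these windows, its absence from the members says nothing of whether they have p53 elements. A single half-site was in 3 members (RFWD3, NUDT1 and RPS27L), 6.52% against 8.06% of all genes. A match is a description of these letters and not a shown binding site.

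**Figure D1:**
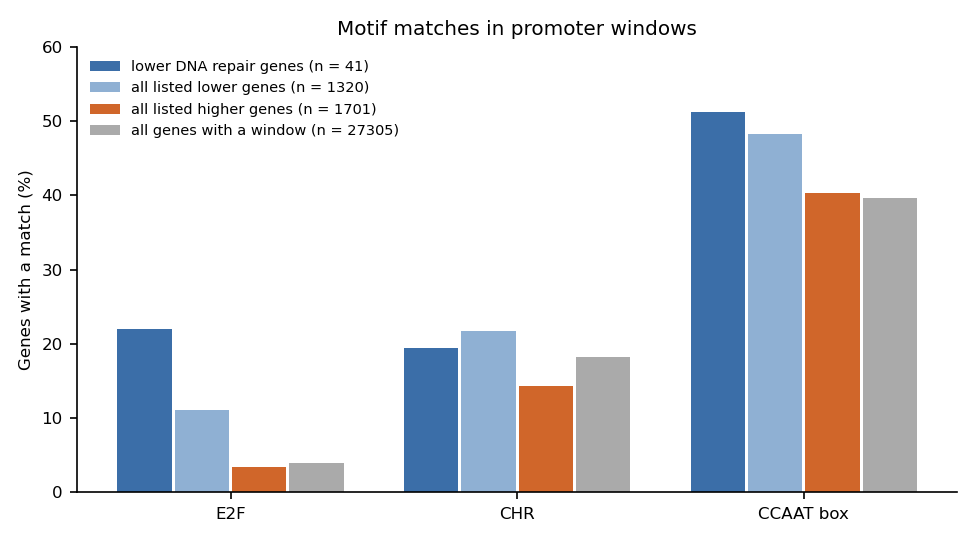
Share of genes (vertical axis, percent) with an E2F, CHR or CCAAT match in any of their promoter windows. Bars are for the lower DNA repair members, all listed lower genes, all listed higher genes and all genes with a window. The E2F bar of the lower members, at 22.0%, stands above the other E2F bars, and the CHR bars run from 14.3% to 21.7%.

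PIF1, the member with the strongest fall, had no E2F match but a CHR and a CCAAT box. The last 80 bases before its start (chr15:64825648-64825727, minus strand) are shown with the CCAAT box, here in its reverse form, and the CHR in capitals.
PIF1: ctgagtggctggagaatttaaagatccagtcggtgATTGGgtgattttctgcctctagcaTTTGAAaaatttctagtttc

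After mitoxantrone 48 of the 53 members were lower and 5 were higher. The lower members held the recombination and Fanconi anemia genes of the set, with EXO1, RAD51AP1, FANCB and BRCA2 down by 17.8-fold or more. The higher ones were BTG2, RPS27L, NABP1, POLR2L and PARP3, none by more than 3.89-fold. The median log2 fold change was -1.67 over all members and -1.77 over the lower ones. Over all listed genes 41.1% were lower and 58.9% higher, and the lower ones had a median of -1.52. Among the 39 other listed genes with the term DNA repair 84.6% were lower, with a median of -2.09 over all 39. The mostly downward direction was thus shared with them and is not particular to the members. Of the listed genes with a mean of at least 50 normalized counts, a level that 52 members reach, 55.0% were lower (1442 of 2622), against 47 of the 52 members. With edgeR's quasi-likelihood fit all 53 members had an adjusted p under 0.05, as did 100% of the table, so passing adds nothing to their having been listed. In none of the 53 did the DMSO and mitoxantrone libraries overlap, which held for 98.3% of listed genes (40.8% lower and 57.5% higher). When a change beyond 2-fold was required (edgeR's glmTreat), 48 members were kept, 44 lower and 4 higher, against 80.6% of listed genes (32.1% lower and 48.5% higher). The 5 that were not kept were ALKBH2, INIP, MUS81, PARP3 and RTEL1, with adjusted p from 0.066 to 0.19. In bulk RNA, fewer cells of a kind and less RNA per cell cannot be told apart, and the fall of MKI67, the marker of cycling cells, from 7312 ± 36.7 to 128 ± 11.5 normalized counts stands beside all these values (SD, n = 3 libraries per group).

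**Figure D2:**
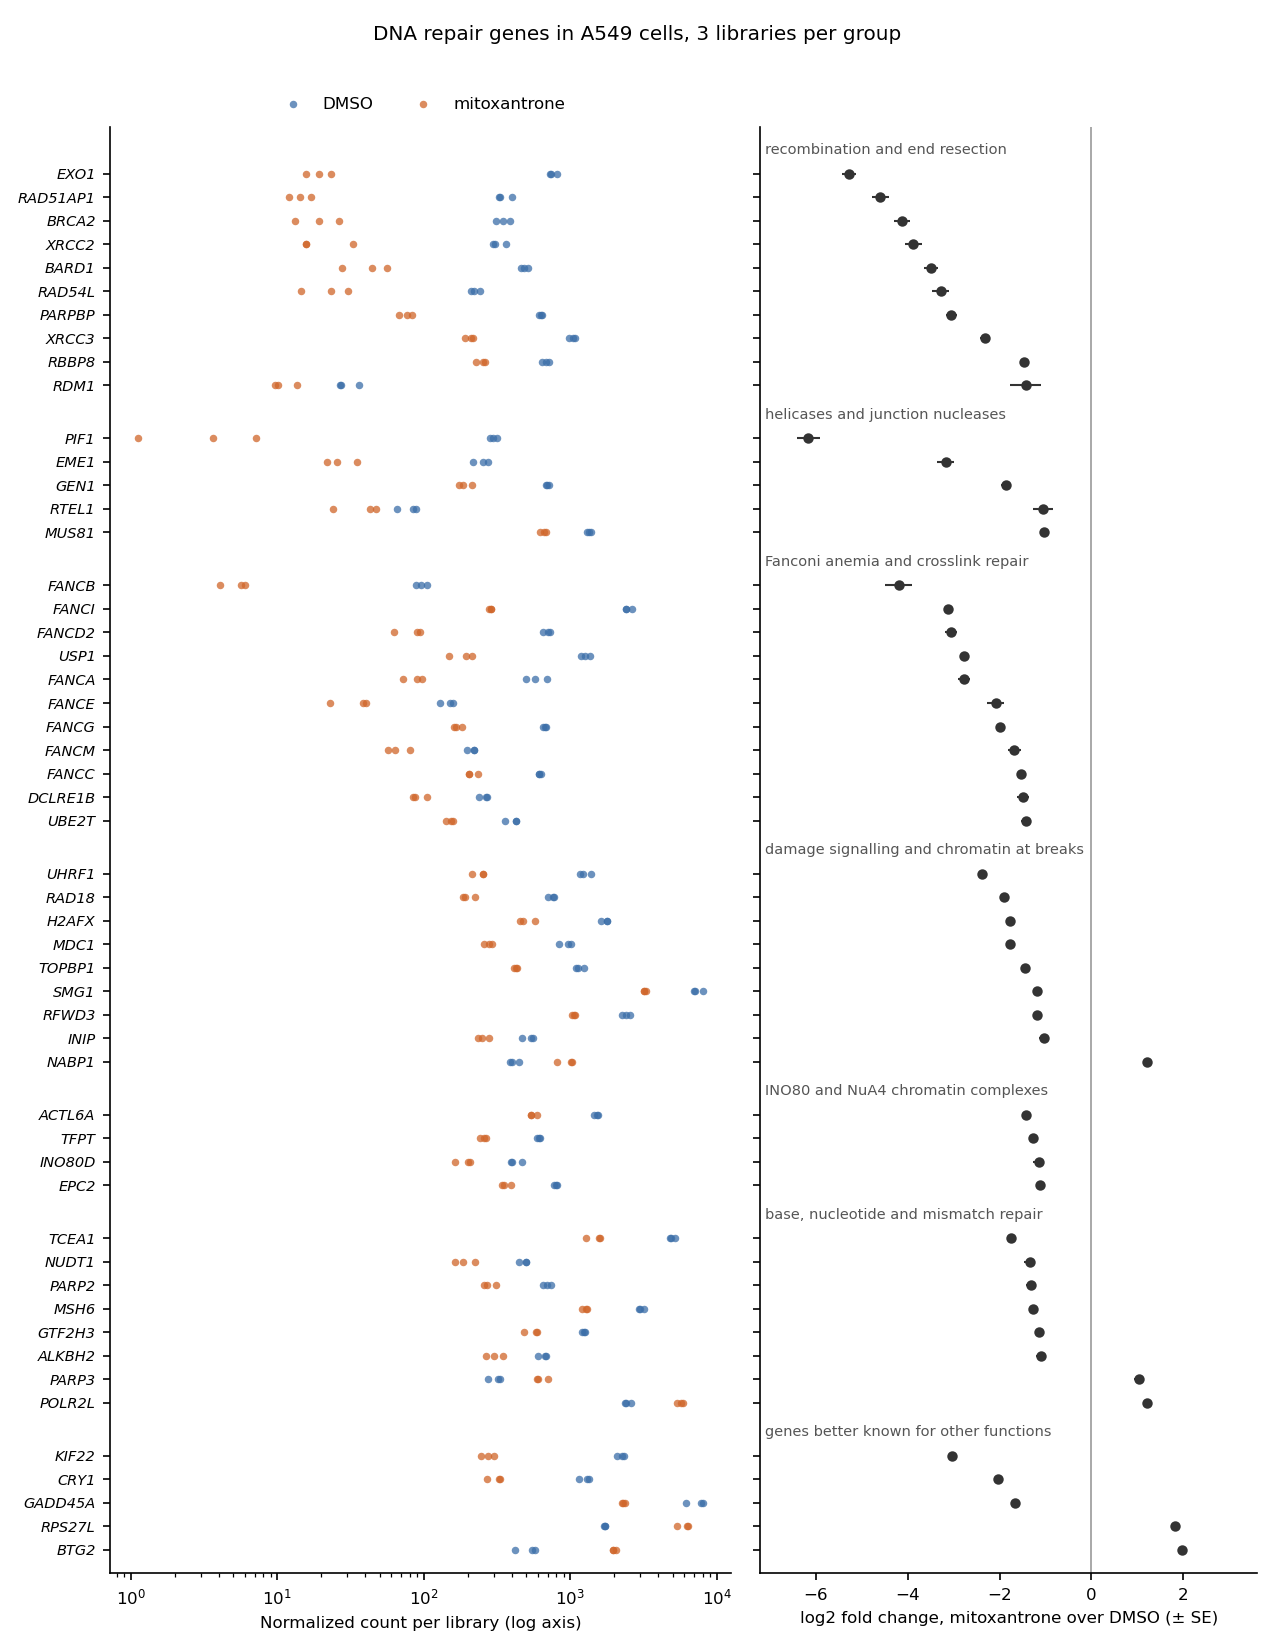
Left, normalized count of each member reported by name in each library (log axis), 3 DMSO points in blue and 3 mitoxantrone points in orange. Right, log2 fold change of mitoxantrone over DMSO with its standard error, by role. The groups do not overlap in any of them, and the points right of 0 are NABP1, PARP3, POLR2L, RPS27L and BTG2.

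All 6 libraries were used, and every mitoxantrone library was shallower than every DMSO library. Totals recovered from the deposited FPKM (fragments relative to gene length and to the total of the library) ran from 20380674 to 21781220 reads with DMSO and from 16681380 to 19352443 with mitoxantrone. Normalized counts, used below, are raw reads divided by a size factor for each library, and values are given in the order of libraries 1, 2 and 3. Of 18 lung epithelial markers 5 were listed, with a summed FPKM of 642.43 to 729.18 with DMSO and 1504.52 to 1619.69 with mitoxantrone. Most of this was KRT8, at 620 to 706 and 1326 to 1429 FPKM, while KRT19 was at 13.03 to 13.47 and 160.79 to 172.81, and MUC5AC was lower with mitoxantrone, at 3.14 to 3.56 and 1.05 to 1.66. Of other cell types 3 of 12 leukocyte markers were listed, with a summed FPKM of 0.87 to 1.04 with DMSO and 3.85 to 4.14 with mitoxantrone. Fibroblast markers (3 of 9 listed) summed to 6.13 to 6.21 and 23.06 to 26.13; of these, ACTA2 stood at 2.41 to 2.74 and 21.13 to 23.86 FPKM, and COL1A1 was lower, at 3.09 to 3.51 and 1.21 to 1.53 FPKM. Leukocyte and fibroblast sums were thus higher with mitoxantrone, as was that of endothelial markers (3 of 5), from 0.00 to 0.01 with DMSO and from 0.14 to 0.17 with mitoxantrone. Their part in the results was not tested, and the other markers have no value here.

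All 11 members of homologous recombination and end resection were lower, with log2 fold changes from -5.27 to -1.43. EXO1 (ENSG00000174371; chromosome 1, 242011269 to 242058450 as deposited, where no build is named) is a nuclease that resects broken ends and also acts in mismatch repair. It gave 742, 724 and 818 normalized counts with DMSO and 15.7, 19.2 and 23.5 with mitoxantrone. The lowest DMSO library was thus far above the highest mitoxantrone library, and the means, 761 ± 50.2 and 19.5 ± 3.88, differed 39.1-fold (log2 fold change -5.27 ± 0.15 SE; edgeR, adjusted p = 3.7e-30). RAD51AP1, which stimulates strand exchange, gave 327, 331 and 398 counts with DMSO and 12.1, 16.9 and 14.3 with mitoxantrone, a 24.4-fold difference. BRCA2 (ENSG00000139618; chromosome 13, 32889611 to 32973805), a mediator of homologous recombination, gave 388, 313 and 350.0 counts and then 13.3, 19.2 and 26.5, or 17.8-fold less (log2 fold change -4.12 ± 0.18). Its mitoxantrone libraries were spread more widely, with a SD of 6.62 on a mean of 19.7, but stayed far below every DMSO library.

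Other recombination genes also fell. RAD54L, a motor protein of strand exchange, had a log2 fold change of -3.27 ± 0.19, and BARD1, the partner of BRCA1, -3.49 ± 0.15. XRCC2 and XRCC3, which also act in homologous recombination, had -3.88 ± 0.19 and -2.32 ± 0.09. BRCA1, which carries the term DNA replication and is therefore no member, was 14.1-fold lower. PARPBP, which restrains recombination, was lower as well, at -3.05 ± 0.12. RBBP8, also known as CtIP, which starts resection, fell less, by 1.46 on the log2 scale. RDM1, a gene for a RAD52-motif protein, had the fewest reads of all members, with 27.4, 26.9 and 36.2 counts against 9.68, 13.5 and 10.2. Its estimate was the least precise (log2 fold change -1.43 ± 0.34; edgeR, adjusted p = 1.9e-04).

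XRCC3 held no E2F or CHR match, but its window carried 5 CCAAT boxes. The last 120 bases before its start (chr14:103715452-103715571, minus strand) hold the 3 nearest the start, all in the reverse form and in capitals here, while the other two lie further upstream in the forward form.
XRCC3: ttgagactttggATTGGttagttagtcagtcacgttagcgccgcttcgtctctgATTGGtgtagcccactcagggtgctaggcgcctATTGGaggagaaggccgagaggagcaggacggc

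Among helicases and junction nucleases, the 5 members fell by very different amounts. PIF1 (ENSG00000140451; chromosome 15, 65107831 to 65117867) is a DNA helicase that unwinds G-quadruplexes and acts at telomeres. It gave 281, 319 and 299 counts with DMSO and 3.63, 1.13 and 7.14 with mitoxantrone. The mitoxantrone values rest on 11 reads in all and vary by 76.1% (coefficient of variation). The log2 fold change of -6.15 ± 0.25 became -6.93 without mitoxantrone 3 and -5.73 without mitoxantrone 2. EME1, the regulatory partner of the nuclease MUS81, had 219, 253 and 275 counts with DMSO and 21.8, 35.0 and 25.5 with mitoxantrone, 9.07-fold less. MUS81, the catalytic subunit, had 1298, 1383 and 1349 against 665, 624 and 680.5, only 2.05-fold less, and it was not kept by glmTreat (edgeR, adjusted p = 0.15). The subunits of this nuclease thus stood at 4.03 and 13.1 FPKM with DMSO and at 0.420 and 6.03 FPKM with mitoxantrone. GEN1, a resolvase of Holliday junctions, had a log2 fold change of -1.87 ± 0.10, and RTEL1, a helicase of telomeres and recombination intermediates, -1.05 ± 0.22. In RTEL1 the groups came close, with 66.0, 89.2 and 84.5 counts against 24.2, 47.4 and 42.8.

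The Fanconi anemia genes were lower without exception among the 11 members of this role, with a median of -2.08. FANCB, a subunit of the core complex that attaches ubiquitin, fell the most, from 89.2, 95.7 and 106 counts to 6.05, 5.64 and 4.08 (18.4-fold; log2 fold change -4.19 ± 0.29; edgeR, adjusted p = 9e-17). Its mitoxantrone values rest on 14 reads in all, and the authors' deposited log2 fold change was -3.84. The targets of that ubiquitin, FANCI and FANCD2, which form a clamp on DNA, changed alike. FANCI (ENSG00000140525; chromosome 15, 89787180 to 89860492) gave 2392, 2419 and 2621 counts with DMSO and 288, 279 and 288 with mitoxantrone, 8.70-fold less. FANCD2 gave 702, 648 and 724 against 62.9, 94.8 and 89.8, 8.38-fold less. Their log2 fold changes of -3.12 ± 0.08 and -3.06 ± 0.12 differ by less than their errors.

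The other core complex subunits covered a range. FANCA stood at -2.76 ± 0.13, FANCE at -2.08 ± 0.19, FANCG at -1.98 ± 0.10, FANCM at -1.67 ± 0.15 and FANCC at -1.53 ± 0.10 (log2 fold changes). All 6 listed genes with the term for the Fanconi anemia nuclear complex were members and lower, and FANCF and FANCL were not listed. UBE2T, the conjugating enzyme of the reaction, fell by 1.42 on the log2 scale, while USP1, which takes the ubiquitin off again, fell by 2.76. DCLRE1B, the nuclease Apollo, had -1.48 ± 0.13.

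Damage signalling genes had a median log2 fold change of -1.45 over 9 members, 8 of them lower. H2AFX encodes the histone H2AX that is phosphorylated around breaks, and it gave 1621, 1778 and 1779 counts with DMSO against 578, 453 and 478 with mitoxantrone, 3.43-fold less. MDC1, the adaptor that binds the phosphorylated form, gave 1014, 967 and 839 against 278, 257 and 294, 3.40-fold less. TOPBP1, an activator of the ATR kinase, gave 1098, 1138 and 1247 against 411, 436 and 429, 2.73-fold less. In all 3 genes the libraries of a group lay close together compared with the gap between groups. UHRF1, a reader of hemimethylated DNA, had the lowest log2 fold change of this role, -2.38 ± 0.10. SMG1, a kinase best known from nonsense-mediated decay, fell by 1.19, a value made uncertain by 7 annotated pseudogene copies, 2 of them listed. The kinase genes ATM and ATR were not listed.

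The ubiquitin ligases also differed. RAD18, which marks PCNA with ubiquitin at stalled forks, gave 761, 704 and 775 counts with DMSO and 189.9, 185 and 224 with mitoxantrone (log2 fold change -1.90 ± 0.10). RFWD3, which acts on the single-strand binding protein RPA, gave 2273, 2540.4 and 2418 against 1058, 1083 and 1021 (-1.19 ± 0.07).

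Subunits of the SOSS complex, which binds single-stranded DNA at breaks, moved in opposite directions. NABP1, its single-strand binding subunit hSSB2, rose from 390.1, 446 and 403 counts to 818, 1015 and 1022, 2.30-fold (log2 fold change 1.21 ± 0.09; edgeR, adjusted p = 1.1e-15). INIP, a small subunit of the same complex, was lower, with 536, 470.0 and 559 counts against 235, 279.9 and 249. Every mitoxantrone library lay above the DMSO range for NABP1 and below it for INIP. The fall of INIP was not kept by glmTreat.

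The 4 genes of chromatin complexes fell by similar amounts, with log2 fold changes from -1.43 to -1.12. ACTL6A, shared by INO80, NuA4 and BAF complexes, stood at -1.43 ± 0.08, TFPT and INO80D of INO80 at -1.26 ± 0.10 and -1.15 ± 0.11, and EPC2 of NuA4 at -1.12 ± 0.09.

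Base, nucleotide and mismatch repair genes were few among the members, and 6 of 8 were lower, by a median of 1.30 on the log2 scale. The poly(ADP-ribose) polymerases PARP2 and PARP3, which both answer strand breaks, went opposite ways. PARP2 gave 654, 690.1 and 743 counts with DMSO and 311, 269 and 256 with mitoxantrone (log2 fold change -1.32 ± 0.10). PARP3 gave 329, 273 and 319 and then 700.4, 590.4 and 599.9 (1.03 ± 0.10), without overlap between the groups. Its rise was the smallest among the members and was not kept by glmTreat (edgeR, adjusted p = 0.17).

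MSH6, which recognises mismatches, fell from 2950.2, 3008 and 3187 counts to 1281, 1292 and 1199.7, 2.42-fold. The gene overlaps the listed gene FBXO11 on the opposite strand. NUDT1, which clears oxidised nucleotides, gave 502, 444 and 497 counts against 223, 184 and 164. ALKBH2, which reverses alkylated bases, gave 604, 683 and 668 against 346, 301 and 267. Both were lower in every mitoxantrone library, by 2.53-fold and 2.14-fold.

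The members linked to transcription-coupled repair are parts of the transcription machinery. GTF2H3, a subunit of TFIIH, gave 1241, 1203 and 1254 counts with DMSO and 486, 597 and 583 with mitoxantrone. TCEA1, the elongation factor TFIIS, fell from 5227, 4869 and 4815 to 1286, 1589 and 1582 counts (log2 fold change -1.74 ± 0.07). It has 4 annotated pseudogene copies, of which 2 are listed. POLR2L, a small subunit shared by the RNA polymerases, rose from 2394, 2609 and 2377 to 5878, 5678 and 5396 counts (1.20 ± 0.07).

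The largest rises belonged to genes better known as p53 targets. BTG2, an antiproliferative gene (ENSG00000159388; chromosome 1, 203274619 to 203278730), gave 572, 546 and 417 counts with DMSO and 2038, 1959.6 and 1970.0 with mitoxantrone. It was 3.89-fold higher (log2 fold change 1.96 ± 0.09; edgeR, adjusted p = 2.1e-23). RPS27L, a ribosomal protein paralog (ENSG00000185088; chromosome 15, 63418071 to 63450220), gave 1692, 1715 and 1737 against 5387, 6369.9 and 6251, 3.50-fold higher. All mitoxantrone libraries of both genes were more than 3 times the highest DMSO library. GADD45A, which is also activated by p53, went the other way, with 8023, 7837 and 6133 counts against 2290.0, 2259.9 and 2350.5. DMSO 3 was the lowest of its control libraries and still above every mitoxantrone library. KIF22, a chromosome-arm kinesin, and CRY1, a circadian repressor related to photolyases, were lower at -3.03 ± 0.09 and -2.02 ± 0.09. The p53-linked repair genes POLH, PCNA and DDB2, excluded by name, were higher, at 2.35, 1.13 and 1.06. RRM2B, also excluded by name, was at 1.02, while FOXM1, excluded in the same way, was lower at -4.67.

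On the length-scaled FPKM scale the members spanned levels from 0.677 (RTEL1) to 189 (GADD45A) with DMSO, with a median of 7.30. With mitoxantrone the median was 2.35, and the extremes were PIF1 at 0.0433 and POLR2L at 249. Of the 53 members 2 were under 1 FPKM with DMSO (RTEL1 at 0.677 and RDM1 at 0.813) and 18 with mitoxantrone. After GADD45A the highest DMSO levels were POLR2L at 115 ± 5.03, TCEA1 at 60.4 ± 2.90 and H2AFX at 57.1 ± 2.87. TCEA1 and H2AFX do not differ beyond their spread. The summed level of the 48 lower members fell from 718 ± 12.9 to 204 ± 3.18 FPKM, 3.51-fold, and that of the 5 higher members rose from 155 ± 5.06 to 374 ± 6.91 FPKM (SD over 3 libraries). Over the 48 lower members Spearman's rho between the log2 fold change and the DMSO FPKM was 0.28, a description across genes that share libraries.

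**Figure D3:**
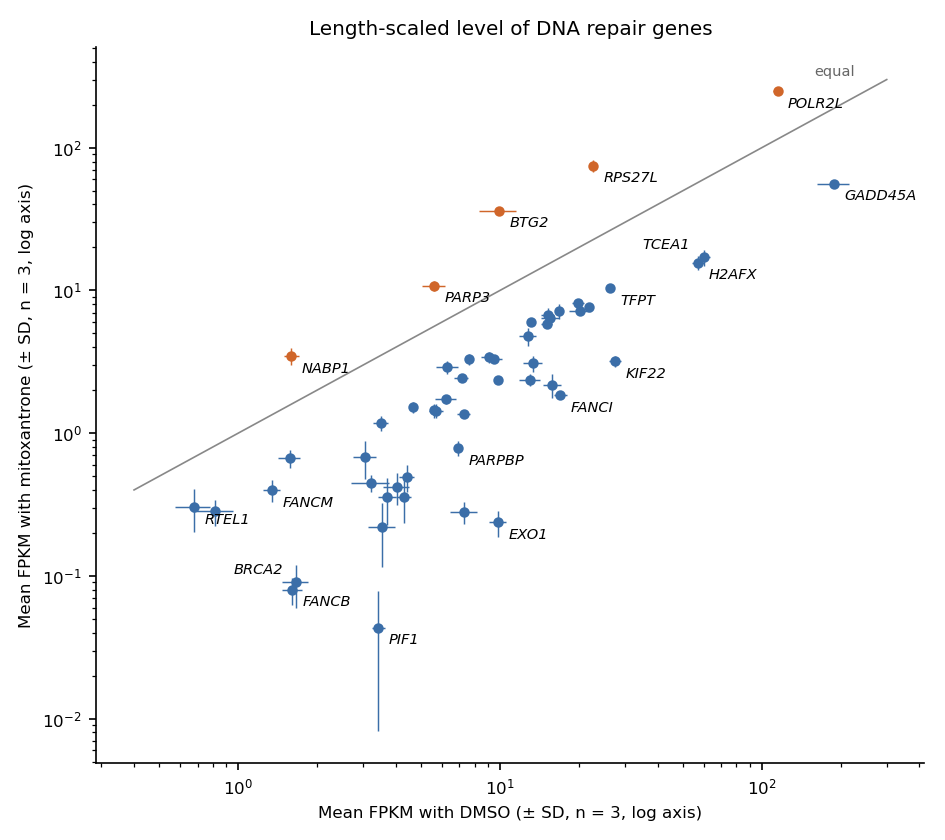
Mean FPKM with mitoxantrone against mean FPKM with DMSO for the members reported by name (both axes logarithmic, bars give the SD over 3 libraries). Points under the line of equal level fell (blue), and the 5 orange points above it are POLR2L, RPS27L, BTG2, PARP3 and NABP1; PIF1 lies lowest with mitoxantrone at 0.0433 FPKM.

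The members just inside the limit that formed the table were, in the authors' deposited table, RTEL1 at -1.02, PARP3 at 1.03 and MUS81 at -1.03 (log2 fold changes). Genes just outside it are not in the table. The sign was that of the deposited value for all 53 members, and the absolute fold change fitted here was larger by a median of 0.01, with the widest gap for PIF1 (0.51). Both fits used the same counts and size factors, so the shared sign is no independent evidence.

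Apart from the term of the rule, members shared other annotation. The directions below stand beside 90.6% lower over all members and 41.1% lower over all listed genes. They are no result about the terms, and the direction of the other listed genes with each term is not given. The term DNA recombination was held by 11 members of 23 listed genes, all 11 lower. Double-strand break repair via homologous recombination was held by 9 members of 18 listed genes, 8 lower and NABP1 higher. Damaged DNA binding was held by 7 members of 18 listed genes, all 7 lower, and nucleotide-excision repair by 5 of 18, 4 lower and 1 higher. The members lay on 18 chromosomes, with 7 on chromosome 1 and no more than 6 on any other. By GENCODE 29, MUS81, MSH6, TCEA1 and GEN1 overlap a listed gene on the opposite strand. Counting genes that are not listed, 31 members overlap some gene. Of the higher members, RPS27L overlaps LACTB and POLR2L overlaps CD151, both on the opposite strand and not listed. Whether the libraries kept strand is not stated, so reads over these overlaps are uncertain. RTEL1 also shares 36954 bases on its own strand with the readthrough gene RTEL1-TNFRSF6B, which is not listed, so its counts and its place as the lowest member by DMSO FPKM depend on how reads there were assigned.

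Repair genes were also followed through 9 pathway lists of 197 different genes, of which 73 were listed, 68 lower and 5 higher. Among these 73 were 35 of the members, so the counts below partly repeat genes given above. The other 38 were 34 lower and 4 higher, against 41.1% lower over all listed genes. Of 41 genes of homologous recombination and resection 26 were listed, 25 lower and 1 higher (SWSAP1), with a median of -2.48. Of 25 Fanconi and crosslink genes 13 appeared, each of them lower (median -2.08). Of 32 genes of damage signalling 13 were listed, all 13 lower. End joining had 2 of 17 genes listed (POLQ at -4.46 and DCLRE1C at -1.42), and XRCC5, XRCC6, PRKDC and LIG4 were not listed. Nucleotide excision repair had 3 of 28 listed, with 2 lower, and base excision and single-strand break repair 4 of 22, with 3 lower. Mismatch repair had 3 of 10 listed, all 3 lower, translesion and postreplication repair 8 of 19, with 6 lower, and direct reversal and nucleotide sanitation 2 of 6, both lower. The table was cut at a fold change, so these counts do not show that the unlisted genes were unchanged.

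**Figure D4:**
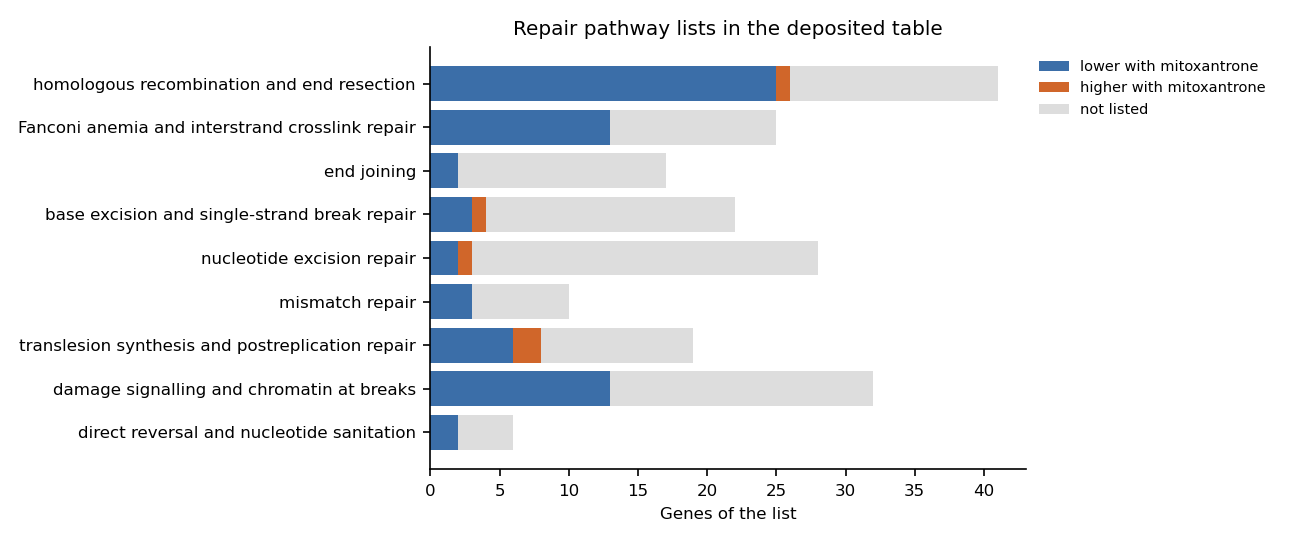
Number of genes (horizontal axis) of each of 9 repair pathway lists that were listed as lower (blue), listed as higher (orange) or not listed (grey). Homologous recombination has 26 of 41 genes listed, while nucleotide excision repair has 3 of 28.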

How the data were processed

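RNA of 3 DMSO and 3 mitoxantrone libraries was read as 2x150 bases, after 13 PCR cycles with no molecular identifiers named, per the labels' protocols. Tools named, without roles, per the submitters' processing notes are HISAT2 2.0.1, cutadapt 1.9.1, SAMtools 0.1.19, HTSeq 0.6.1, Cufflinks 2.2.1 and DESeq2; the build is not given in the sources used here. Per the file headers, the deposited table gives raw counts and FPKM per library, a mean normalized count (a signal the authors made by scaling counts with size factors), the authors' log2 fold change, a score (fold change over its standard error), and p-values. Groups came from the titles.

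Size factors were recovered from the counts and mean normalized counts (largest relative residual 4.8e-10) and library totals from genes at 20 FPKM or more. The whole table was fitted in edgeR 4.0.16 (R 4.3.3) by the quasi-likelihood test, with no covariate or filter and Benjamini-Hochberg adjustment over 4546 genes; SE is the fold change over the root of F. The fit was tested on simulated data. Alternatives were TMM, library totals, DESeq2 1.42.0, a count filter, glmTreat, a replicate block and leaving out each library.

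The members, roles and lists were chosen with earlier results of these data known. By a rule, 26 members are given in full (all higher ones, the 3 strongest per list with a mean of at least 50, the extremes of level and those nearest the fold limit). PIF1, EME1, INIP and the members given by fold change alone were added after their values were seen, as were the sequences. One of the members is counted throughout but not reported here by name. Depth limits members with few reads; no interval covers more than counting or library spread.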

Additional observations from a re-analysis of the deposited data

How the results depend on the processing

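Counts of calls moved by no more than 1.5 times under any of the alternatives run, and all 53 members stayed 48 lower and 5 higher with TMM, library totals, DESeq2, the count filter, an adjusted p of 0.01 and each library left out. Of 636 member values under alternatives 631 kept direction and side of the threshold, 0 reversed, and 5 no longer passed, all against a 2-fold change. Staying called was nearly fixed in advance, since the members were listed for having been called on these same libraries. In the main fit 100% of the table passed, and against a 2-fold change 80.6% did. TMM on the listed genes shifted the log2 fold changes by a median of -0.26, so the median of the members became -1.93 and that of the lower members -2.03. The rises became smaller, at 1.70 for BTG2, 1.55 for RPS27L, 0.95 for NABP1, 0.94 for POLR2L and 0.77 for PARP3. Leaving out 1 library gave medians of -1.76 to -1.65 for the members. Replicate numbers did not pair the libraries (same-number correlations of -0.07, -0.08 and 0.03 over 2622 genes, with DMSO 1 and 2 closest to another number), and the replicate block gave 53 member calls and a median of -1.68. With any term containing DNA repair the rule took 58 genes (CEBPG, HMGB1, HMGB2, IER3 and UIMC1 added, 53 lower), and with any term containing the excluded words 50 (BRCA2 and RBBP8 among those lost, 45 lower). With mitoxantrone 13 members had under 50 normalized counts, which limits their folds.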

Other observations

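Repair genes of the pathway lists that carry no DNA repair term in the deposited annotation were listed too, 25 in all. BRIP1, the Fanconi helicase that binds BRCA1, had 312 ± 17.1 normalized counts with DMSO and 23.1 ± 2.39 with mitoxantrone (log2 fold change -3.75 ± 0.17). NEIL3, a glycosylase of base excision and crosslink repair, went from 414 ± 66.3 to 35.0 ± 5.47 (-3.55 ± 0.16), and TRIP13, an ATPase of meiotic recombination and the spindle checkpoint, from 1125 ± 98.1 to 198 ± 34.0 (-2.50 ± 0.10; SD, n = 3 libraries per group). RAD54B, a relative of RAD54L, fell by 2.23 on the log2 scale.

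The order of the libraries within a group is given as a description, with no test. DMSO 3 was the highest control library in 26 of the 48 lower members (54.2%) and the lowest in 5 (10.4%), while over all 1869 listed lower genes it was the highest in 30.6% and the lowest in 38.4%. Mitoxantrone 1 was the lowest of its group in 25 of 48 (52.1%) and in 48.5% of the listed lower genes. Without DMSO 3 the median of the lower members was -1.81, and all 48 still passed.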
